A study of Homo sapiens with 4 samples.

Results

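The genes described here are the replication-dependent histone genes, which lie in the HIST1 cluster on chromosome 6, the HIST2 and HIST3 groups on chromosome 1 and at HIST4. They were taken by symbol: the symbol had to begin with HIST, a cluster number and one of the classes H1, H2A, H2B, H3 or H4, and symbols ending in P or containing PS, which mark pseudogenes, were left out. Of 58365 rows, 87 had such a symbol, 12 were left out, and the remaining 75 rows gave 74 genes, since HIST1H3D has 2 rows, of which the higher was kept. They comprised 6 H1, 17 H2A, 22 H2B, 14 H3 and 15 H4 genes, 55 of them in HIST1. The rule kept 3 genes that GENCODE release 29 annotates as pseudogenes, among them HIST3H2BA. Apart from the choice between those 2 rows, the rule used symbols and no measured value.

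RNA came from the H1 line of human embryonic stem cells (hESCs) carried through hematopoietic differentiation to day 8. All cells received 40 ng/ml activinA with 50 ng/ml BMP4 for 2 days and then 40 ng/ml VEGF with 50 ng/ml bFGF for 3 days. For the last 3 days VEGF and bFGF were given either with SB431542, an inhibitor of the TGFβ type I receptor (2 libraries, SB), or with its solvent DMSO alone (2 libraries, DMSO), and each treatment has a replicate 1 and a replicate 2. The study states that CD31+ cells were sequenced, which the labels leave out. The labels do not say whether the replicates were separate cultures, and the study speaks only in general of independent experiments, in another number than the libraries here, so the p-values below measure the spread between these 4 libraries, which may be technical.

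Histones are the proteins around which DNA is wound: H2A, H2B, H3 and H4 form the core of the nucleosome, and H1 binds the linker DNA between cores. Most of a dividing cell's histones come from these clustered genes, which are transcribed in S phase under the coactivator NPAT. Their mRNAs are unusual in that they normally end not in a poly(A) tail but in a short stem-loop, which is bound by SLBP and cut free with the help of the U7 small nuclear RNA. Some of the genes can also make a polyadenylated mRNA that runs past the stem-loop. The libraries were made with a TruSeq RNA kit, a kit that usually selects polyadenylated RNA, and the labels name the molecule total RNA.

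The stem-loop is shown here because it is the 3′ end that sets these mRNAs apart. A perfect hairpin with arms of 6 bases beginning GG and a loop of 4 bases beginning TT was found after the stop codon in 30 of the 73 members with a GENCODE 29 model, against 172 of 58648 other genes (0.293%) with such a hairpin anywhere in a transcript. It began between 22 and 67 bases after the stop codon (median 35.5). The models of 32 members hold the coding sequence only and so end before it. Some longer models, such as those of HIST1H1E and HIST1H4C, held no match either, and no H1 gene had one. The windows below are read 5′ to 3′ in the mRNA sense, with DNA letters, and capitals mark the hairpin of 16 bases.
HIST3H2A: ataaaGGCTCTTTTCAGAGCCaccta
HIST1H2AC: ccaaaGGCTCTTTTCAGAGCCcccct
HIST1H2BC: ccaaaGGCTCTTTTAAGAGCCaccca
HIST1H2BD: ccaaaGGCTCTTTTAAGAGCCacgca
HIST2H2BE: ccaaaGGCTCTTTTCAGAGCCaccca
HIST1H4H: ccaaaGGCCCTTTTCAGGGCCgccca
HIST1H4J: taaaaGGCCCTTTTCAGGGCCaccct
HIST1H4I: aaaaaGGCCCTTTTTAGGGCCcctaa
The hairpin came in 4 forms that followed the histone class. The form of HIST3H2A, HIST1H2AC and HIST2H2BE was found in 17 members (6 H2A, 8 H2B and 3 H3), and that of HIST1H2BC and HIST1H2BD in 5 (3 H2B and 2 H3). The form of HIST1H4H and HIST1H4J was found in 5 H4 genes, and that of HIST1H4I in 3 H4 genes. Not every gene model ended near the hairpin: that of HIST1H4J ended 6 bases past it, that of HIST3H2A 390 bases past it, and that of HIST2H2BE 1729 bases past it. In 21 members the model ran on for at least 100 bases.

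Promoters are shown for 2 of the genes whose values are described first below. RefSeq promoters (GRCh38.p14, from 250 bases before to 50 bases after the start) matched 60 members. Capitals mark 3 short motifs, each searched on both strands, so that its reverse complement is capitalised as well. They are the TATA box, searched as TATAAA, the CCAAT box, searched by these 5 letters, and the octamer that binds OCT1, searched as ATTTGCAT. The first window, chr6:26123922-26124221 on the plus strand, belongs to HIST1H2AC and covers the entire gap between this gene and HIST1H2BC, which is transcribed the other way. The second is chr6:27146809-27147108 on the minus strand, where a forward and a reverse TATA box overlap at one place.
HIST1H2AC: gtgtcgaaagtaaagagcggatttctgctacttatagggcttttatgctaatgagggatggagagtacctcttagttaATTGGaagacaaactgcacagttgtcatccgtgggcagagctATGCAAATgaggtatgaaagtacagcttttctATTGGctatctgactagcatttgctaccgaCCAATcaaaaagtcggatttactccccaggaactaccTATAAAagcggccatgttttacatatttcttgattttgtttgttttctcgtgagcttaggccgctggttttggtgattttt
HIST1H2BK: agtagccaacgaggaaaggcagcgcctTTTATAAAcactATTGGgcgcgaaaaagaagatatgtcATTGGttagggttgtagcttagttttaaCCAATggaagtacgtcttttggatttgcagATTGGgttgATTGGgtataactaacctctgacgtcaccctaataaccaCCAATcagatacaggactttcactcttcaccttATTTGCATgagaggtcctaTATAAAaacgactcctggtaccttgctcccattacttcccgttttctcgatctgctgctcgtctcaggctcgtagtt
The CCAAT box was found in 83.3% of the members' promoters against 35.7% of all 27305 promoters, the TATA box in 66.7% against 12%, and the octamer in 35.0% against 1.80%. The octamer followed the class, with 68.8% of H2A and 69.2% of H2B promoters, 8.33% of H3 promoters and none of the 6 H1 or 13 H4 promoters. The CCAAT box was present in every H1, H2A, H2B and H3 promoter matched and in 23.1% of the H4 promoters. These matches are letters in a window and do not show binding, and the promoters of neighbouring genes in opposite directions overlap.

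The histone cluster genes were low in all 4 libraries. Levels are given in FPKM, fragments scaled to transcript length and to the number of mapped fragments. A comparison between genes therefore depends on the model used for each. The models of 32 members hold the coding sequence only, and those of 21 run on for at least 100 bases past the hairpin. The 74 genes together summed to 37.8 and 42.3 FPKM in the DMSO libraries and to 61.3 and 55.5 FPKM in the SB libraries. By contrast, 12 replication-independent and variant histone genes, whose mRNAs mostly carry a poly(A) tail, summed to between 2180 and 2890 FPKM per library. Among those, H3F3B, which encodes the replacement histone H3.3, stood at 914 and 548 FPKM with DMSO and at 965 and 635 FPKM with SB.

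Of the 74 members, 17 were listed at 0 in every library and 32 were above 0 in every library. The 17 included HIST1H1T, HIST1H2AA and HIST1H2BA. A mean of at least 1 FPKM in either treatment was reached by 13 members, and these were the ones tested: 1 of 6 H1, 5 of 17 H2A, 5 of 22 H2B, 2 of 15 H4 and none of 14 H3 genes. The next below this limit was HIST1H2AH, with a mean of 0.916 FPKM in the SB libraries. The 61 members below the limit had means up to 0.681 FPKM over the 4 libraries (median 0.10 FPKM) and held between 20.2% and 24.2% of the summed FPKM. HIST1H2BK and HIST3H2A alone held between 34.5% and 42.6% of it.

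**Figure D1:**
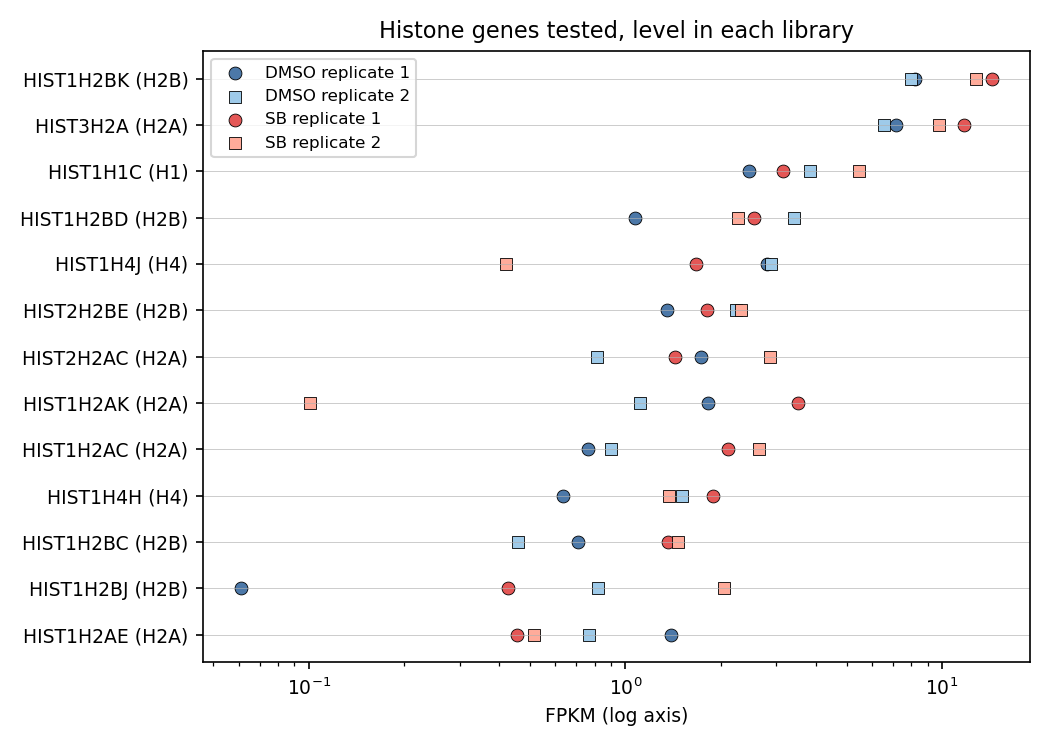
FPKM of the 13 tested histone genes in each library on a log axis, 1 row per gene with its class, circles for replicate 1 and squares for replicate 2. HIST1H2BK (7.99 to 14.4 FPKM) and HIST3H2A (6.58 to 11.7 FPKM) lie above the other genes in every library, and both have both SB libraries above both DMSO libraries.

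Few fragments stood behind most of these values. The table holds no counts, but FPKM values of genes with 1 exon and 1 transcript rise in steps, each the worth of 1 fragment. The fragment length was fitted per library. The worth of 1 fragment was then refined at each transcript length on values near whole numbers, the members' own among them. On that scale 95.8% of the 118 values above 0 of 58 such members came out whole, within 0.1 fragment or 0.5%. Because of the refinement, this share is no independent check of the fragment numbers. The same steps put the depth of the libraries at 24200000 and 23500000 fragments with DMSO and at 19700000 and 26000000 with SB, if length is corrected for fragment size in the way assumed here. Per library, between 26 and 31 of the 58 members had 0 fragments, between 13 and 19 had 1 to 3, and between 5 and 8 had 10 or more. The values that came out whole added up to 321 and 326 fragments with DMSO and to 342 and 483 with SB. These totals leave out the values that were not whole, of which SB replicate 1 had 2 and each other library 1. The largest value left out was that of HIST1H2AG in SB replicate 1, at 29.4 fragments. A fragment was worth between 0.0181 and 1.59 FPKM, depending on gene length and library.

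**Figure D2:**
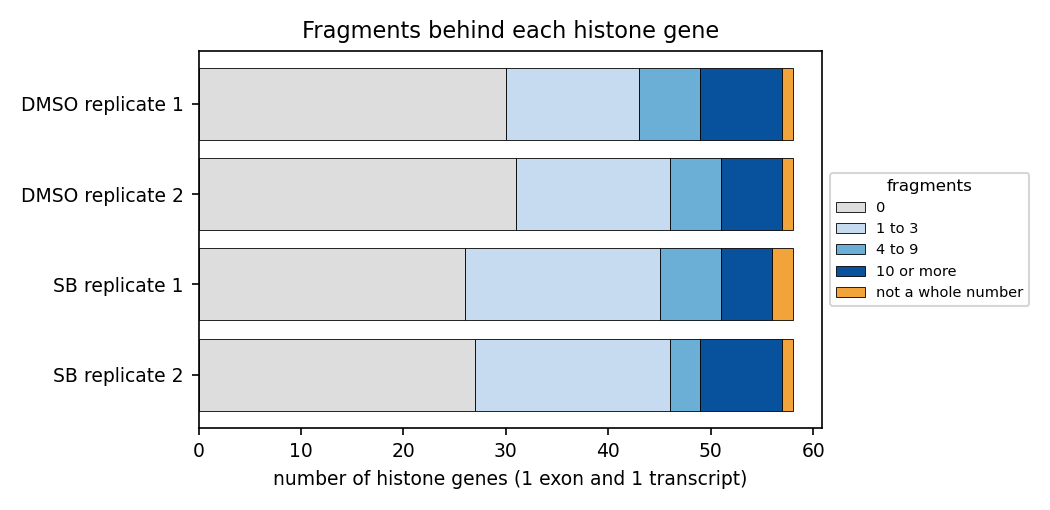
Number of histone genes, of the 58 with 1 exon and 1 transcript, by the number of fragments recovered in each library, 1 bar per library. Between 26 and 31 genes had 0 fragments and no more than 8 had 10 or more.

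To ask how SB changed the histone genes, the SB libraries were compared with the DMSO libraries. HIST1H2BK, HIST3H2A, HIST1H2AC and HIST1H2BC were higher in both SB libraries than in both DMSO libraries, and HIST1H4J and HIST1H2AE were lower in both. None of the 13 members tested passed an adjusted p of 0.05 with limma, where 0.134% of all 14909 genes did. Of the 13, HIST1H2AC, HIST1H2BC and HIST1H2BJ reached a mean of 1 FPKM only with SB and HIST1H2AE only with DMSO, so the limit itself favoured the direction of these 4, and the counts and the median over the 13 describe them without supporting a direction. At an unadjusted p under 0.05, limma gave 4 members higher (HIST1H2AC and HIST1H2BC among them) and 1 lower, against 4.80% of all genes higher and 5.16% lower. The libraries did not overlap in 4 members that were higher with SB and in 2 that were lower, against 21.5% and 16.0% of all genes tested. The median log2 difference of the 13 was 0.37, against 0.04 over all genes tested, and without the limit it was 0.15. With 2 libraries a side, the smallest two-sided p that exact permutation allows is 0.333. Leaving out DMSO replicate 1 gave a median of 0.09 over the 14 members then tested, and leaving out SB replicate 2 gave 0.62 over 16. With only 1 library left on a side, fewer genes of any kind overlap. Those not overlapping on the higher side were 9 of 13 members without DMSO replicate 2 (43.1% of all genes) and 8 of 13 without SB replicate 1 (39.5%). They were 10 of 16 without SB replicate 2 (35.4%). Without DMSO replicate 1 they were 5 of 14 (35.7%), near the 36.2% of all genes. On the lower side they were 4 of 14 without DMSO replicate 1 (33.7%).

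By class, the summed FPKM was higher in both SB libraries than in both DMSO libraries for H2A, H2B and H3. H2A genes summed to 14 and 11.4 FPKM with DMSO and to 24.3 and 18.0 FPKM with SB, a 1.66-fold difference of the means. H2B genes summed to 13.1 and 18.0 FPKM with DMSO and to 24.0 and 24.3 FPKM with SB, a 1.55-fold difference. For H3 the sums were 2.27 and 1.82 FPKM with DMSO and 2.78 and 3.87 FPKM with SB. No H3 gene reached the limit for testing. In an H3 gene of 411 nt, 1 fragment was worth 0.295 FPKM in DMSO replicate 1 and 0.401 FPKM in SB replicate 1. The separation of the H3 sums therefore rests on few fragments. H1 and H4 overlapped: H1 genes summed to 2.73 and 4.23 FPKM with DMSO and to 4.11 and 5.66 FPKM with SB, and H4 genes to 5.62 and 6.77 FPKM against 6.03 and 3.62 FPKM.

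**Figure D3:**
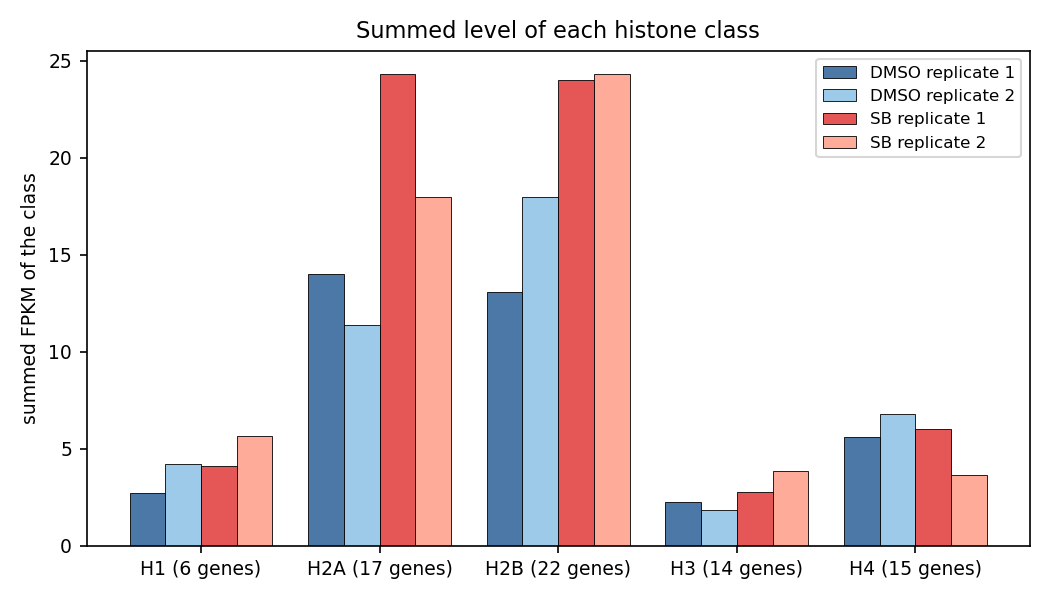
Summed FPKM of each histone class in each library, 1 bar per library, with the number of genes in the class. For H2A, H2B and H3 both SB bars stand above both DMSO bars, and for H4 SB replicate 2 (3.62 FPKM) is the lowest of the 4. The H3 sums rest on few fragments.

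HIST1H2BK (ENSG00000197903.7, chromosome 6, 27146418 to 27146798, minus strand), an H2B gene, was the highest of the 74 in FPKM. It stood at 8.20 and 7.99 FPKM with DMSO and at 14.4 and 12.8 FPKM with SB. Its log2 difference was 0.68 (SE 0.16, limma unadjusted p 0.00948, adjusted p 0.28). The model used for it holds only 381 nt of coding sequence, while RefSeq gives the gene a span of 8566 bases. The values rested on 22 and 18 fragments with DMSO and on 28 and 33 with SB, so that the exact Poisson 95% interval of DMSO replicate 2 (4.73 to 12.6 FPKM) overlapped that of SB replicate 2 (8.84 to 18.0 FPKM). Such intervals cover counting error only.

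HIST3H2A (ENSG00000181218.5, chromosome 1, 228456979 to 228457873, minus strand) was the highest H2A gene and had more fragments than HIST1H2BK in every library. It stood at 7.16 and 6.58 FPKM with DMSO (108 and 94 fragments) and at 11.7 and 9.76 FPKM with SB (140 and 155 fragments). The log2 difference was 0.57 (SE 0.18, limma unadjusted p 0.025, adjusted p 0.40). The Poisson intervals of the DMSO libraries (5.87 to 8.64 and 5.32 to 8.05 FPKM) lay below that of SB replicate 1 (9.82 to 13.8 FPKM) while that of SB replicate 2 (8.29 to 11.4 FPKM) overlapped the interval of DMSO replicate 1. Within replicate 1 SB was higher by 0.64 and within replicate 2 by 0.51 on the log2 scale.

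HIST1H2AC (H2A) and HIST1H2BC (H2B), which are transcribed away from each other across the gap of 218 bases shown above, were both higher with SB. HIST1H2AC stood at 0.760 and 0.902 FPKM with DMSO and at 2.11 and 2.64 FPKM with SB, a 2.85-fold difference of the means and a log2 difference of 0.88 (SE 0.21, limma unadjusted p 0.0102, adjusted p 0.288). HIST1H2BC stood at 0.707 and 0.458 FPKM with DMSO and at 1.36 and 1.47 FPKM with SB, a log2 difference of 0.61 (SE 0.23, limma unadjusted p 0.0434, adjusted p 0.481). Neither gene overlapped between treatments, and both were tested only because their SB means, and not their DMSO means, reached 1 FPKM. Both have several transcript models, so their fragments could not be recovered.

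The other tested H2A and H2B genes did not separate the treatments, apart from HIST1H2AE, which was tested only through its DMSO mean. HIST1H2AE stood at 1.39 and 0.768 FPKM with DMSO and at 0.455 and 0.513 FPKM with SB, a log2 difference of -0.47 (SE 0.26, limma unadjusted p 0.134, adjusted p 0.695), but these values rested on only 8, 4, 2 and 3 fragments. HIST2H2BE stood at 1.35 and 2.23 FPKM with DMSO and at 1.81 and 2.32 FPKM with SB. The treatments overlapped although the gene had between 63 and 115 fragments. HIST1H2BD stood at 1.07 and 3.41 FPKM with DMSO and at 2.55 and 2.26 FPKM with SB, so that the DMSO libraries enclosed the SB libraries.

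In 4 of the 13 tested members the difference between SB and DMSO had opposite signs within replicate 1 and within replicate 2. The widest such spread was that of HIST1H2AK (H2A), whose log2 difference was 0.68 within replicate 1 and -0.93 within replicate 2, with 1.82 and 1.11 FPKM for DMSO and 3.52 and 0.101 FPKM for SB. An exon of HIST1H2AK overlaps HIST1H2BN on the other strand, its values did not come out as whole fragments, and strand use in counting is not given in the sources used here. HIST2H2AC (H2A) followed, at -0.17 and 1.09, with 1.73 and 0.815 FPKM for DMSO and 1.43 and 2.86 FPKM for SB, on 5, 2, 3 and 8 fragments. HIST1H2BD and HIST1H4H were the other two. Of the remaining genes, 7 were higher with SB within both numbers and 2, HIST1H4J and HIST1H2AE, were lower within both.

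Among H4 genes, HIST1H4J (chromosome 6, 27824108 to 27824480, plus strand) was the highest. It stood at 2.80 and 2.88 FPKM with DMSO and at 1.67 and 0.421 FPKM with SB, a log2 difference of -0.98 (SE 0.35, limma unadjusted p 0.0401, adjusted p 0.472). The fragments were 7 and 6 with DMSO and 3 and 1 with SB. The Poisson intervals of the DMSO libraries (1.13 to 5.78 and 1.06 to 6.28 FPKM) overlapped those of SB replicate 1 (0.34 to 4.89 FPKM) and SB replicate 2 (0.01 to 2.34 FPKM). Of the stretches of 50 bases in its model, 81.2% also occur in another member, so its reads could be split between near-identical genes. HIST1H4H, the next H4 gene, stood at 0.637 and 1.51 FPKM with DMSO and at 1.89 and 1.37 FPKM with SB, with overlap. HIST1H4C followed, with 0.252 and 0.287 FPKM against 1.02 and 0.254 FPKM.

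HIST1H1C encodes a linker histone, and it was the only H1 gene above the limit. It stood at 2.45 and 3.84 FPKM with DMSO and at 3.14 and 5.48 FPKM with SB, and the treatments overlapped (log2 difference 0.34, SE 0.31, limma adjusted p 0.835). HIST1H1E was next, with 0.171 and 0.274 FPKM against 0.976 and 0.0819 FPKM, on 2, 3, 9 and 1 fragments. HIST1H1D was listed at 0.105 and 0.112 FPKM with DMSO and at 0 with SB, on 1, 1, 0 and 0 fragments. No H3 gene was tested: the highest, HIST2H3D, stood at 0.886 and 0.342 FPKM with DMSO and at 0.401 and 0.904 FPKM with SB, on 3, 1, 1 and 3 fragments. HIST1H3H stood at 0.471 and 0.448 FPKM against 0.374 and 0.848 FPKM. HIST1H3A rested on 1 fragment in each library, between 0.295 and 0.401 FPKM.

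With no limit on the level, 57 members were above 0 in at least 1 library. The mean FPKM was higher with SB in 42 of them (73.7%), against 51.3% of the 29447 rows above 0 in a library, and the median log2 difference was 0.15 against 0.00 (0.16 for H1, 0.27 for H2A, 0.13 for H2B, 0.08 for H3 and 0.06 for H4). By class the mean was higher with SB in 3 of 4 H1, 11 of 14 H2A, 13 of 16 H2B, 9 of 12 H3 and 6 of 11 H4 genes. The libraries did not overlap in 11 members on the higher side (19.3%, against 16.6% of all such rows) and in 3 on the lower side (5.26%, against 16.0%). Most of these genes had 0 to 3 fragments in a library. Without a filter no member passed the adjustment with limma, while 5 higher and 1 lower had an unadjusted p under 0.05, against 4.35% and 4.95% of all such rows.

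Histone H2A and H2B genes often lie head to head and share the DNA between their starts. Of 12 pairs of members with opposite directions and starts less than 1000 bases apart, 11 joined an H2A and an H2B gene, with gaps between 218 and 356 bases in all 12. The genes of a pair were not always at like levels. HIST3H2A was 199-fold higher than HIST3H2BB in mean FPKM, but their models are of unlike length, 895 and 2364 nt. HIST3H2BB rested on 1 and 2 fragments with DMSO and on 4 and 1 with SB. For HIST3H2A these were 108 and 94 with DMSO and 140 and 155 with SB. HIST1H2BK was 23.7-fold higher than HIST1H2AH, which had 0 fragments in both DMSO libraries and 3 and 1 in the SB libraries. In contrast, HIST1H2AC was 1.6-fold higher than HIST1H2BC and HIST2H2BE 1.13-fold higher than HIST2H2AC. HIST1H2AA and HIST1H2BA, and HIST1H2AJ and HIST1H2BM, were listed at 0 throughout.

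**Figure D4:**
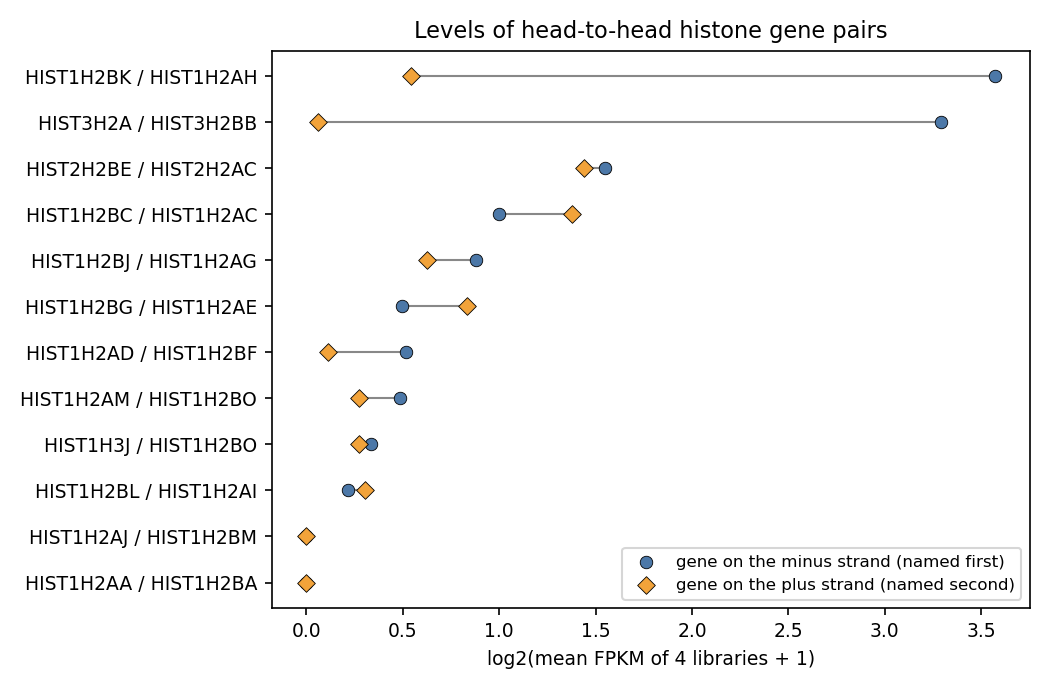
Mean level over the 4 libraries, as log2(mean FPKM + 1), of the 2 genes of each head-to-head histone pair, with a line joining them. The lines of HIST1H2BK with HIST1H2AH (23.7-fold) and HIST3H2A with HIST3H2BB (199-fold) are the longest, and that of HIST2H2BE with HIST2H2AC (1.13-fold) is short.

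Replicate 2 was then compared with replicate 1 over both treatments. HIST1H2BJ, HIST1H1C and HIST2H2BE were higher in both libraries of replicate 2, and HIST1H2AK was lower in both. No member passed the adjustment with limma, where 0.309% of all genes did. At an unadjusted p under 0.05, limma gave no member higher and 1 lower (HIST1H2AK), against 7.78% and 11.9% of all genes. The libraries did not overlap in 3 members on the higher side and in 1 on the lower side, against 28.7% and 23.9% of all genes tested. The median log2 difference of the 13 was 0.04, as it was over all genes tested, and without SB replicate 2 it was -0.36. With no limit on the level, the mean was higher in replicate 2 in 24 of 57 members (42.1%), against 54.2% of all rows above 0.

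HIST1H2BJ (H2B) showed the largest difference upward between the replicate numbers, with 0.0609 and 0.427 FPKM in replicate 1 against 0.820 and 2.05 FPKM in replicate 2 (DMSO and SB in each case), a log2 difference of 0.94 (SE 0.39, limma adjusted p 0.286). HIST1H1C followed, with 2.45 and 3.14 FPKM against 3.84 and 5.48 FPKM, at 0.57 (SE 0.22, limma adjusted p 0.265). The fragments behind HIST1H1C were 22 and 22 in replicate 1 and 32 and 51 in replicate 2. HIST2H2BE differed by 0.35 (SE 0.21, limma adjusted p 0.416). HIST1H2AK differed by -1.23 (SE 0.44, limma adjusted p 0.24). For HIST1H2BJ, HIST1H1C, HIST2H2BE and HIST1H2AK the difference between replicate numbers was larger in size than that between treatments. The latter was 0.59, 0.34, 0.15 and -0.13. The same held for HIST1H2BD, at 0.49 between replicate numbers and 0.17 between treatments.

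**Figure D5:**
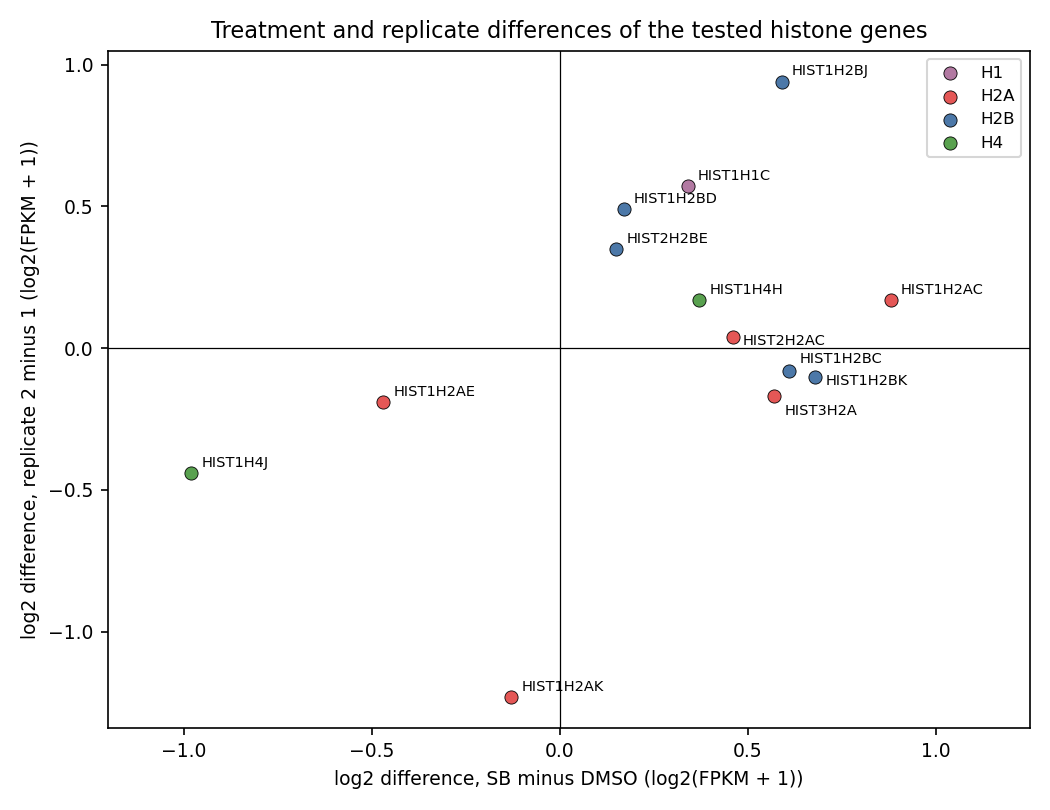
Log2 difference between SB and DMSO (horizontal) and between replicate 2 and replicate 1 (vertical) for the 13 tested histone genes, on the log2(FPKM + 1) scale, coloured by class. HIST1H2AC (0.88) and HIST1H4J (-0.98) lie farthest along the treatment axis, and HIST1H2BJ (0.94) and HIST1H2AK (-1.23) along the replicate axis.

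By replicate number, the summed FPKM of all 74 members was in replicate 2 1.12-fold its value in replicate 1 with DMSO and 0.906-fold with SB. H2A sums were lower in replicate 2 under both treatments (0.817-fold with DMSO and 0.741-fold with SB), H1 sums were higher under both (1.55-fold and 1.38-fold), and H4 sums were 1.20-fold with DMSO and 0.60-fold with SB. The libraries of the 2 numbers also differed in RNAs that carry no poly(A) tail. A list of 15 such RNAs summed to 26800 and 24700 FPKM in replicate 1 and to 8160 and 9370 FPKM in replicate 2, of which RN7SL1 and RN7SL2 made up most, and 6 of the 15, including the U7 small nuclear RNA gene RNU7-1, were listed at 0 in every library. RN7SL1 fell from 16100 and 17500 FPKM to 2760 and 2940 FPKM (log2 difference -2.56, limma adjusted p 0.00677) and RN7SK from 179 and 228 FPKM to 24.5 and 17.5 FPKM (limma adjusted p 0.0333). The list did not move as a whole: of its 8 tested RNAs 6 were lower and 2 higher in replicate 2, SNORD3A stood at 0.387 and 0 FPKM in replicate 1 and at 19.8 and 59.5 FPKM in replicate 2 (limma adjusted p 0.0571), and MALAT1 at 116 and 134 FPKM against 130 and 111 FPKM. The part of these differences in the histone values was not tested.

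Genes that make and handle histone mRNA differed little in the median between treatments. Of 26 genes listed for histone transcription and mRNA processing, 24 were found and 23 tested, and none passed the adjustment or an unadjusted p of 0.05 with SB in limma (12 of the 23 were higher and 11 lower, median log2 difference 0.02). SLBP stood at 27.4 and 28.7 FPKM with DMSO and at 30.1 and 34.1 FPKM with SB (log2 difference 0.19, SE 0.16, limma adjusted p 0.825), and NPAT at 3.58 and 3.43 FPKM against 2.96 and 3.00 FPKM (-0.18, SE 0.18, limma adjusted p 0.854). The exonuclease gene XRN1 (-0.41), the S phase regulator E2F1 (0.33) and the uridylyltransferase gene ZCCHC11 (-0.27) had the smallest unadjusted p of the list. Between replicate numbers no gene of this list, of the replication-independent histones, the chaperones or the S phase genes passed the adjustment with limma. At an unadjusted p under 0.05 the processing list had 1 gene higher and 3 lower in replicate 2, the replication-independent histones 0 and 3, the chaperones 4 and 2 and the S phase genes 0 and 3, beside the 7.78% and 11.9% of all genes given above.

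Of the replication-independent histones, 11 of 12 were tested and none passed the adjustment, while 2 were higher at an unadjusted p under 0.05 (limma, beside 4.80% of all genes tested). These were CENPA, the centromeric H3 variant (5.83 and 6.38 FPKM with DMSO, 9.18 and 9.15 FPKM with SB), and H2AFZ, which encodes H2A.Z (222 and 238 FPKM against 306 and 325 FPKM). H3F3A, another H3.3 gene, had a log2 difference of 0.32. Of 19 histone chaperone genes, all tested, none passed and 2 were higher at an unadjusted p under 0.05 (limma, beside the same 4.80%). They were ASF1B (10.5 and 9.82 FPKM against 16.4 and 15.9 FPKM) and ANP32E (24.4 and 33 FPKM against 40.7 and 43.7 FPKM). HIRA, which deposits H3.3, stood at 12 and 11.4 FPKM against 15.2 and 14.9 FPKM.

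All 22 S phase genes were tested. None passed the adjustment, and 5 were higher and none lower at an unadjusted p under 0.05 (limma), beside 4.80% and 5.16% of all genes tested. The median log2 difference of the 22 was 0.41. The libraries did not overlap in 14 of them, all higher with SB, against the 21.5% given above. GINS2 stood at 1.74 and 2.01 FPKM with DMSO and at 3.77 and 4.25 FPKM with SB, CDC45 at 7.54 and 6.18 FPKM against 14 and 10.5 FPKM, and PRIM1 at 6.91 and 7.48 FPKM against 10.02 and 11.1 FPKM, all 3 being parts of the replication machinery. The S phase sum was 1.33-fold higher with SB in replicate 1 and 1.32-fold in replicate 2, beside 1.62-fold and 1.31-fold for the 74 histone genes. Whether the 2 sums are linked was not tested.

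Among the lists of cell type markers, the endothelial one differed little between treatments (median log2 difference -0.07) and the others differed more. The 6 endothelial markers, CD31 gene PECAM1 among them, summed to 1230 and 1240 FPKM with DMSO and to 1180 and 1160 FPKM with SB. The 6 hematopoietic markers summed to 290 and 272 FPKM against 466 and 420 FPKM, with PTPRC, which encodes CD45, at most 0.202 FPKM. The 4 endoderm and liver markers summed to 155 and 170 FPKM against 12.8 and 12.2 FPKM, of which 3 (APOA1, AFP and TTR) fell past the adjustment with limma. The 3 mesenchymal markers summed to 231 and 178 FPKM against 76.5 and 66.7 FPKM, and the 3 pluripotent markers to 0.487 and 0.538 FPKM against 1.31 and 1.73 FPKM. POU5F1 made up most of the pluripotent sum (0.442 and 0.473 FPKM against 1.23 and 1.60 FPKM). NANOG, which overlapped between treatments, was at most 0.0261 FPKM and SOX2 at most 0.121 FPKM. None of the 22 markers was at 0 in every library, and the part of a changed mix of cells in the histone values was not tested. In bulk RNA fewer cells with a histone mRNA and less of it per cell cannot be told apart.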

How the data were processed

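The authors deposited FPKM values in 58365 rows, with 1 column for each of the 4 libraries (2 DMSO and 2 SB). The submitters' processing notes name BWA, Bowtie, RSEM and hg19, but 95.5% of the Ensembl identifiers were found in GENCODE release 29 and 99.8% of those rows had its GRCh38 position, so positions are given on GRCh38. Sequencing was done by a service company, and scaling between libraries and strand use are not given in the sources used here. FPKM values were transformed to log2(FPKM + 1), a scale that understates the change of low genes, and fold changes are on this scale unless FPKM is named. Rows with a mean of at least 1 FPKM in at least 1 treatment were tested (14909). SB was compared with DMSO, and replicate 2 with replicate 1, by limma 3.58.1 (R 4.3.3), with empirical Bayes and a trend, 1 term, two-sided p-values and Benjamini-Hochberg adjustment over all rows tested (threshold 0.05), tested on simulated data. Count tests were not run, since the table holds no counts. Fragments per gene were recovered from the steps of FPKM, with exact Poisson intervals (95%).

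The histone genes and lists were chosen with earlier results of these data known. Named were members past the threshold, the 3 highest of each class, the largest differences without overlap between treatments (up to 6 each way) and between replicate numbers (up to 4), the 2 widest spreads between replicate numbers, SLBP, NPAT and the 3 genes of smallest p in a list; other members are named as a group's count, neighbour or contrast and were chosen after their values were seen, as were RN7SL1, RN7SK, SNORD3A, MALAT1 and PTPRC. MCM2 is both an S phase and a chaperone gene, and CCNE2 both an S phase and a processing gene. Alternatives were a replicate block, no filter, a stricter filter (5 FPKM or more in 2 libraries or more), upper-quartile scaling, quantile normalization, scaling without mitochondrial genes, RN7SL1 and RN7SL2, a pseudocount of 0.1 and each library left out.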

Additional observations from a re-analysis of the deposited data

How the results depend on the processing

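The limits are the 2 libraries per group and the low depth of single genes, many of which rest on under 10 fragments. With the replicate number as a block, 2 members passed as higher with SB (HIST1H2BK, log2 difference 0.68, limma adjusted p 0.0239, and HIST3H2A, 0.57, 0.0385) and 1 passed between replicate numbers (HIST1H1C, 0.57, 0.0458), where 10.5% and 22.7% of all genes tested did. The labels do not say that the numbers pair the libraries, and the deviations of DMSO replicate 1 and SB replicate 1 correlated at r = 0.528 across genes, over only 2 pairs.

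Without a filter 57 members entered, the median with SB was 0.15 (H2B 0.13, H4 0.06) and 11 did not overlap on the higher side. With at least 5 FPKM in at least 2 libraries only HIST1H2BK and HIST3H2A were left, so that 2 did not overlap on the higher side and 0 on the lower, with a median of 0.63; it was also 0.63 with a pseudocount of 0.1. Quantile normalization, upper-quartile scaling and scaling without mitochondrial genes, RN7SL1 and RN7SL2 turned no direction among the 13 members and brought none past the adjustment in either comparison. At an unadjusted p under 0.05 the upper-quartile scaling and the one without those RNAs gave 3 members higher with SB (3.67% and 3.75% of all genes) and 1 higher between replicate numbers (13.9% and 12.3%), and upper-quartile scaling left none lower there. No H1 or H4 value exists under the stricter filter.

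With each library left out in turn, 0 members passed the adjustment in either comparison (limma, with 3 to 6 at an unadjusted p under 0.05 for SB and 0 to 4 between replicate numbers, beside 6.11% to 9.40% and 8.84% to 14.6% of all genes). The members not overlapping ranged from 5 to 10 (higher, 35.4% to 43.1% of all genes) and from 2 to 4 (lower, 27.7% to 33.7%), and the median from 0.09 to 0.62 with SB and from -0.36 to 0.28 between replicate numbers. The class medians of the tested members with SB, 0.34 for H1, 0.46 for H2A, 0.59 for H2B (the value of HIST1H2BJ, which was tested only through SB) and -0.31 for H4, ranged from 0.02 to 0.67 (H1, without SB replicate 2 and SB replicate 1), 0.17 to 0.76 (H2A, without DMSO replicate 2 and SB replicate 2), 0.06 to 0.67 (H2B, without DMSO replicate 1 and DMSO replicate 2) and -1.0 to 0.51 (H4, without DMSO replicate 1 and SB replicate 2). In SB against DMSO 4 of 50 such values for single members turned direction, in ranges from -1.15 to 0.89 (HIST1H2AK), -0.37 to 0.72 (HIST1H2BD) and -0.08 to 0.38 (HIST2H2BE). Between replicate numbers 12 of 50 did, in ranges from -0.30 to 0.64 (HIST1H2AC), -0.46 to 0.30 (HIST1H2BC), -0.47 to 0.28 (HIST1H2BK), -0.24 to 0.58 (HIST1H4H), -1.17 to 0.29 (HIST1H4J), -0.50 to 0.59 (HIST2H2AC) and -0.49 to 0.15 (HIST3H2A). HIST2H2AC was also at -0.02 with a pseudocount of 0.1. The cause of these changes was not tested.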
